A study of Mus musculus with 15 samples.

Results

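Erythroid precursors take up more iron than any other cell of the body, because each one fills with hemoglobin. Iron bound to transferrin enters through the transferrin receptor, is reduced and leaves the endosome for the cytosol, and is then carried into the mitochondrion for heme synthesis, kept in ferritin or exported. Iron regulatory proteins bind hairpins called iron-responsive elements in the mRNAs of this system: hairpins at the 3′ end of the receptor mRNA protect it from decay when iron is short, and a hairpin at the 5′ end of a ferritin mRNA blocks its translation.

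The 10 genes described here cover this route and were chosen by name, as rows of the deposited tables. The rule uses none of their values, though the list was drawn up with earlier results of these data known. They are Tfrc, Tfr2, Steap3 and Slc11a2 for uptake, Slc25a37 and Slc25a38 for mitochondrial import, Fth1 and Ftl1 for storage, Slc40a1 for export and Ireb2 for sensing. All 10 were found once each among the 55487 mouse genes of the tables, and all 10 passed the filter on low counts in every comparison. The smallest count of any of them in any library was 1446, for Slc40a1 in a group 2 mutant.

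The libraries come from erythroid progenitors of mouse fetal liver at E12.5, strain 129S6/SvEvTac, and compare wildtype embryos with embryos mutant for Rpl5, a large-subunit ribosomal protein gene affected in Diamond Blackfan anemia. Group 1 of mice holds 3 wildtype and 3 mutant libraries whose molecule is labelled polyA RNA, and its allele name is not given in the sources used here. In group 2, labelled total RNA, there are 3 libraries each of wildtype embryos, mutants and mutants called low-yield. Its sample sheet gives both kinds of mutant the genotype name Rpl5plusSkax23Jus, and "low-yield" is not defined. No treatment is named for any group, and nothing says how the progenitors were isolated or whether the 3 libraries of a group come from separate embryos, so p-values measure only the spread between these libraries. Total counts were 48510828 to 58513669 per library in group 1 and 24954324 to 44827821 in group 2.

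Rpl5 was lower in every mutant library than in any wildtype library of its group. Its normalised count, in CPM (counts divided by the TMM-adjusted library size and put on a fixed scale), was 656, 668 and 744 in the group 1 wildtype libraries and 520, 561 and 570 in the mutants. Group 2 gave 324, 303 and 374 in wildtype, 232, 248 and 248 in mutants and 243, 219 and 278 in low-yield mutants. Erythroid markers were abundant in every library: the 10 on the list summed to 3948 to 4843 CPM in group 1 wildtype and 2484 to 2557 CPM in group 1 mutants. In group 2 the sums were 4603 to 7426, 3421 to 3811 and 3012 to 3746 CPM in wildtype, mutant and low-yield mutant libraries. Of the 10 markers, 9, 3 and 7 fell in the group 1 mutants, group 2 mutants and low-yield mutants. The share of all genes called lower was 6.52%, 2.8% and 5.56%. Gata1 was called in none of these comparisons, and its mean was not lower in mutants. It was 209 CPM in group 1 wildtype and 230 CPM in its mutants. In group 2 the Gata1 mean was 365 CPM in wildtype and 382 CPM in both kinds of mutant. Granulocyte markers (8 genes) summed to 14.0 to 26.4 CPM in group 2 wildtype, 96.4 to 195 CPM in its mutants and 137 to 285 CPM in its low-yield mutants, with 4 and 8 of the 8 genes rising. In group 1 they summed to 86.5 to 661 CPM in wildtype and 218 to 1270.4 CPM in mutants, with none called. Megakaryocyte markers (6 genes) summed to 11.6 to 14.4, 19.2 to 23.6 and 37.4 to 40.5 CPM in group 2 wildtype, mutants and low-yield mutants, where Itga2b rose in both and Itgb3 in the low-yield mutants. Endothelial markers stayed at or under 9.44 CPM in sum, and Pecam1 rose in both kinds of group 2 mutant. These shifts accompany each result on the iron genes below, and their part in those results was not tested. In bulk libraries fewer cells of a type and less RNA per cell cannot be told apart.

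The hairpins of the iron-regulatory system could be read from the annotated transcripts for 4 of the 10 genes. The search was made along the sense strand of the untranslated regions in GENCODE M21 (GRCm38), for a bulged C, 5 bases, the loop CAGTGN and 5 bases that pair with the first 5 (G with T allowed). Of the 5 base pairs below the bulge at least 3 had to form. These 7 matches are shown because they carry the family's shared regulatory feature, with the loop in capitals, each of 29 bases and written 5′ to 3′ on the strand of its gene. Tfrc holds 4, all in its 3′ UTR on the plus strand. Fth1 (plus strand), Ftl1 (minus) and Slc40a1 (minus) hold 1 each, in the 5′ UTR.
Tfrc site 1, chr16:32631219-32631247: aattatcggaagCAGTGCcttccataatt
Tfrc site 2, chr16:32631598-32631626: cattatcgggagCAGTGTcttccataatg
Tfrc site 3, chr16:32631663-32631691: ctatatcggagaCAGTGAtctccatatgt
Tfrc site 4, chr16:32631710-32631738: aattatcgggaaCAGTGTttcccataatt
Fth1, chr19:9982732-9982760: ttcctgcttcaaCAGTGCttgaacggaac
Ftl1, chr7:45459779-45459807: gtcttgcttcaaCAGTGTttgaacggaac
Slc40a1, chr1:45925465-45925493: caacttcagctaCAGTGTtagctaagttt
The same letters occur in the 5′ UTR of 9 of 20916 genes (0.043%) and in the 3′ UTR of 35 of 21045 genes (0.166%). The other 6 genes had no match, which says only that this pattern is not in those windows. A match is a description of sequence.

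Transcript levels per length put ferritin far above the rest. In group 1 wildtype libraries Ftl1, the ferritin light chain, stood at 1199 ± 61.5 CPM per kb of transcript and Fth1, the heavy chain with the iron-oxidising site, at 1161 ± 76.2 (SD, n = 3, as for all values with ±). Their libraries overlapped. Tfrc followed at 175 ± 7.56, then Slc25a37 at 88.4 ± 21.6, Slc25a38 at 68.4 ± 3.78, Tfr2 at 58.6 ± 2.01, Steap3 at 45.4 ± 2.55, Slc11a2 at 37.6 ± 0.838, Ireb2 at 16.5 ± 0.874 and Slc40a1 at 16.3 ± 1.76. Among these neighbours, Slc25a37 overlapped Slc25a38 and Ireb2 overlapped Slc40a1, while the others were apart.

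Ftl1, Fth1 and Tfrc held the first 3 places in every group of libraries. Slc25a37 was 4th per length in both wildtype groups, and 6th, 7th and 8th in the group 1 mutants, group 2 mutants and low-yield mutants. Its libraries overlapped there with those of Steap3, next in the order, in the group 1 mutants and with those of Slc11a2 in both mutant groups of group 2, so these places are not resolved. It stood at 39.3 ± 2.64, 43.1 ± 4.64 and 36.8 ± 5.99 CPM per kb in those mutant groups. In group 2 wildtype the order was Ftl1 at 1182 ± 59.8 CPM per kb, Fth1 at 398 ± 32.6, Tfrc at 178 ± 25.0 and Slc25a37 at 86.1 ± 29.8. Steap3 at 80.8 ± 4.65, Slc25a38 at 75.5 ± 7.22 and Tfr2 at 74.7 ± 6.99 followed, and from Slc25a37 to Tfr2 each overlapped the next. Slc11a2 at 49.3 ± 3.48, Slc40a1 at 18.2 ± 1.46 and Ireb2 at 12.1 ± 1.74 lay below Tfr2 and apart from one another. The tables of the 2 groups of mice were normalised separately and differ in the RNA labelled, so levels are not compared between them.

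**Figure D1:**
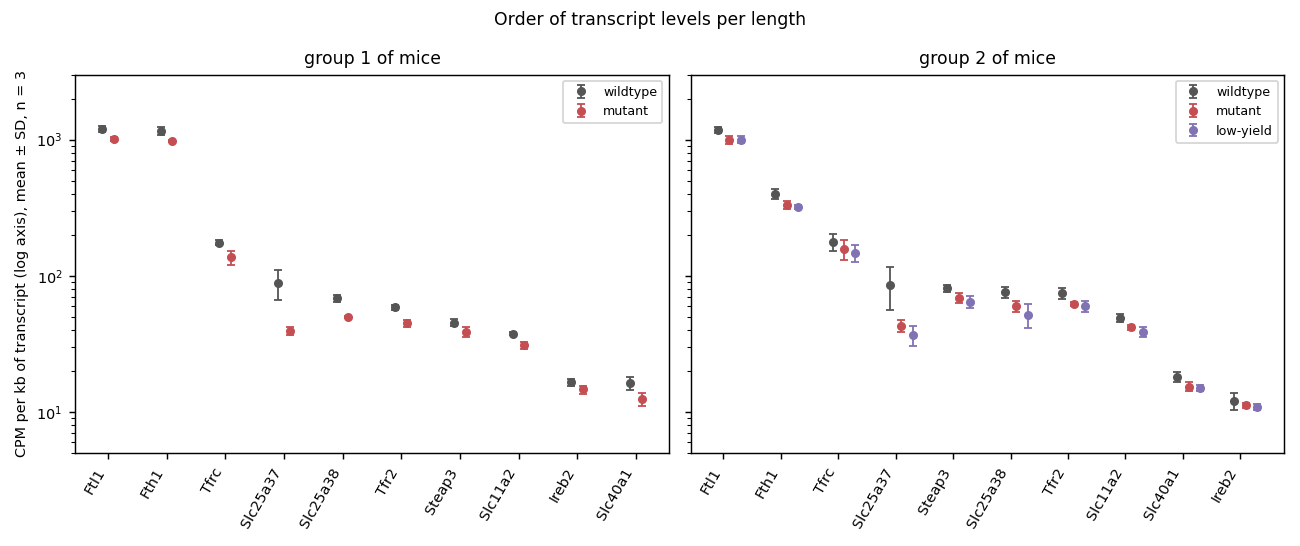
Mean transcript level of each gene per kb of transcript (CPM per kb, log axis, mean ± SD, n = 3), in the order of the wildtype libraries of each group of mice. Ferritin and Tfrc lead in every group of libraries, and Slc25a37 drops from 4th place in wildtype to between 6th and 8th in the mutants.

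The question of the series, what differs between Rpl5 mutant and wildtype progenitors, had a one-directional answer for these genes: every one of the 10 had a lower mean in the mutants, in each of the 3 comparisons with wildtype. In group 1, 8 of the 10 fell (edgeR quasi-likelihood test, Benjamini-Hochberg adjusted over all genes), none rose, and the background was 1678 of 14048 genes called, 11.9% (6.52% lower). With the replicate number as a block 8 members were again among 2772 genes called (9.77% of genes lower), Steap3 in place of Slc25a37. In group 2, none of the 10 passed in the mutants, where 905 of 15024 genes were called, 6.02% (2.8% lower). DESeq2 called Fth1, Ftl1 and Slc25a37 lower there (3 members, beside 4.34% of genes), limma-voom called Tfr2, Slc11a2, Slc25a37 and Ftl1 (4 members, 6.03%), and edgeR without the low-count filter called Slc25a37 and Slc25a38 (2 members, 2.78%). In the low-yield mutants 6 fell, where 1758 of 15024 genes were called, 11.7% (5.56% lower). DESeq2 called 8 there, with Ftl1 and Slc40a1 added (adjusted p = 0.0229 and 0.0478), and limma-voom 8, with Tfrc and Ftl1 added (adjusted p = 0.0394 and 0.0108), beside 7.41% and 11% of genes lower. The comparisons within group 2 share the wildtype libraries.

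The mitochondrial importer Slc25a37 (mitoferrin 1) had the lowest mutant level relative to wildtype of all 10 genes in each comparison, at 44.5% in group 1, 49.99% in group 2 mutants and 42.7% in low-yield mutants. The other 9 stood between 68.4% and 92.8% of wildtype. The median log2 fold change of the 10 was -0.32, -0.25 and -0.31 in the group 1 mutants, group 2 mutants and low-yield mutants, beside 0.01, -0.01 and 0.00 over all genes tested. At an unadjusted p under 0.05, 10, 8 and 8 of the 10 were lower, against 13.7%, 9.35% and 12.1% of all genes. The mutant libraries lay below every wildtype library for 10 of 10 genes in group 1, where 16.6% of all genes did so. In group 2 this held for 8 of 10 genes in the mutants (11.8% of all genes) and for 8 of 10 in the low-yield mutants (14.6%). The exceptions in both were Tfrc and Ireb2.

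**Figure D2:**
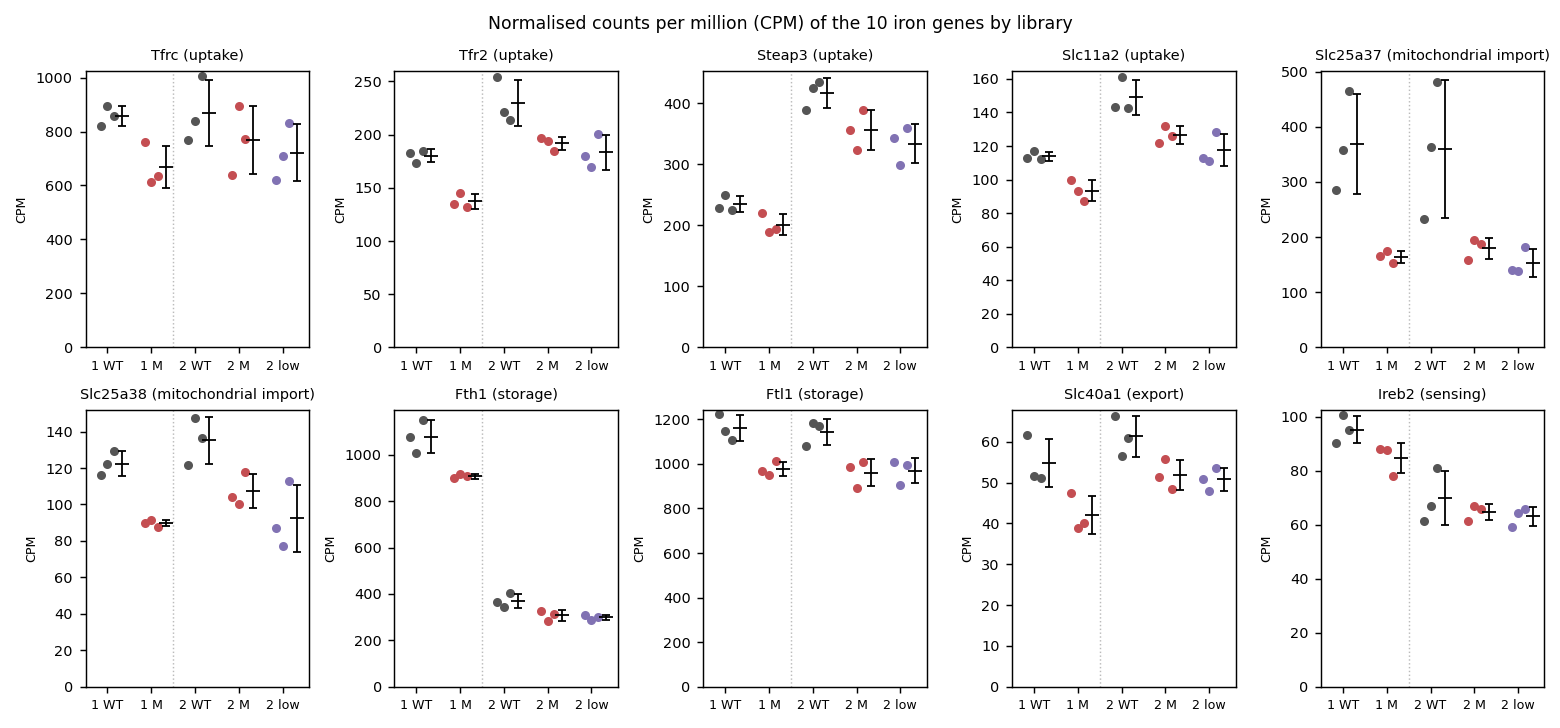
Normalised counts (CPM, linear axes from 0) of the 10 genes in each of the 15 libraries, with the mean and SD of each group in black (n = 3). Labels 1 and 2 give the group of mice, WT is wildtype, M mutant and low the low-yield mutant; mutants sit below wildtype in nearly all panels, and the wildtype libraries spread most for Slc25a37.

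Uptake begins with Tfrc, transferrin receptor 1 (ENSMUSG00000022797, chr16:32608920-32632794, plus strand, GRCm38). In group 1 its level was 820, 894 and 856 CPM in wildtype and 759, 614 and 634 CPM in the mutants, a log2 fold change of -0.36 ± 0.08 (SE; adjusted p = 0.0166, edgeR). Group 2 wildtype gave 767, 837 and 1005 CPM, with 640.6, 895 and 770 CPM in mutants and 621, 711 and 833 CPM in low-yield mutants. All group 1 mutants lay below all wildtype libraries, whereas in group 2 the libraries overlapped. The group 2 log2 fold changes were -0.18 ± 0.14 and -0.27 ± 0.14 for mutants and low-yield mutants, and neither passed (adjusted p = 0.554 and 0.256, edgeR).

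Tfr2 encodes transferrin receptor 2 (ENSMUSG00000029716, chr5:137569840-137587481, plus strand), a partner of the erythropoietin receptor in erythroid cells. It read 183, 173 and 184 CPM in group 1 wildtype and 135, 145 and 132 CPM in the mutants. The values of group 2 were 254, 222 and 213 CPM in wildtype, 197, 194 and 185 CPM in mutants and 179, 169 and 201 CPM in low-yield mutants. No mutant library reached a wildtype library in either group. Tfr2 fell by 0.39 ± 0.06 on the log2 scale in group 1 (SE; adjusted p = 0.00184, edgeR) and by 0.33 ± 0.09 in low-yield mutants (adjusted p = 0.0244, edgeR), and the group 2 mutants missed the threshold at -0.26 ± 0.09 (adjusted p = 0.0949, edgeR). Hepatocytes also express Tfr2; the 10 hepatocyte markers summed to 30.4 to 56.4 CPM in group 1 wildtype and 6.66 to 19.2 CPM in its mutants, without overlap, with a median log2 fold change of -1.50 over the 9 tested and Alb called lower. In group 2 the sums were 9.65 to 69.7 CPM in wildtype, 9.57 to 43.8 CPM in mutants and 37.8 to 45.1 CPM in low-yield mutants, with medians of -0.41 and 0.17 and none called. Their part in the result was not tested.

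Steap3, the endosomal reductase that turns ferric into ferrous iron (ENSMUSG00000026389, chr1:120190757-120272705, minus strand), read 229, 249 and 225 CPM in group 1 wildtype and 221, 190 and 194 CPM in the mutants. The group 2 libraries held 390, 425 and 436 CPM in wildtype, 357, 323 and 388 CPM in mutants and 343, 298 and 360.0 CPM in low-yield mutants. The mutant libraries were below wildtype in every case, by a narrow margin in group 1 and in the group 2 mutants. Only the low-yield comparison passed, at -0.32 ± 0.09 (adjusted p = 0.0355, edgeR). Group 1 gave -0.22 ± 0.07 (adjusted p = 0.0700, edgeR) and, with the replicate number as a block, -0.22 (adjusted p = 0.0247, edgeR). It was also called there by DESeq2 (adjusted p = 0.0291), limma-voom (0.0471), and edgeR without the low-count filter (0.0313) or with the floor on mean CPM (0.0373).

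Slc11a2, or DMT1, moves the reduced iron out of the endosome (ENSMUSG00000023030, chr15:100387898-100425072, minus strand). It read 113, 117 and 112 CPM in group 1 wildtype and 99.7, 93.1 and 87.4 CPM in the mutants. Levels in group 2 were 143, 161 and 143 CPM in wildtype, 122, 132 and 126 CPM in mutants and 113, 111 and 128 CPM in low-yield mutants. The groups did not overlap in any of the 3 comparisons with wildtype. It fell by 0.29 ± 0.07 in group 1 and by 0.34 ± 0.08 in low-yield mutants on the log2 scale (SE; adjusted p = 0.0155 and 0.0140, edgeR). The group 2 mutants stood at -0.24 ± 0.08 (adjusted p = 0.106, edgeR). An exon of Gm5475 overlaps it on the opposite strand and, with the use of strand in counting not given, their reads may be shared; counts assigned to Gm5475 were at most 3.89% of those of Slc11a2.

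Mitochondrial import showed both the largest change and the widest spread between libraries. Slc25a37, which brings iron across the inner mitochondrial membrane for heme and iron-sulfur clusters (ENSMUSG00000034248, chr14:69241848-69285112, minus strand), read 285, 358 and 464 CPM in group 1 wildtype and 166, 174 and 152 CPM in the mutants. Libraries of group 2 read 233, 364 and 481 CPM in wildtype, 158, 194 and 188 CPM in mutants and 140, 138 and 182 CPM in low-yield mutants. Every mutant library was below every wildtype library, and the wildtype libraries differed far more among themselves than the mutants did.

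Slc25a37 fell by 1.17 ± 0.19 on the log2 scale in group 1 (SE; adjusted p = 0.0160, edgeR), and with the replicate number as a block the value was -1.14 (adjusted p = 0.0702, edgeR). Only 1.79% of the 14048 genes tested had a more negative log2 fold change. In the low-yield mutants it fell by 1.23 ± 0.25 (adjusted p = 0.0201, edgeR), and the group 2 mutants stood at -1.001 ± 0.25 (adjusted p = 0.0643, edgeR). Group 2 wildtype replicate 1 had the least Slc25a37 of the wildtype libraries and also the smallest sum of erythroid markers, 4603 CPM beside 6328 and 7426 CPM in replicates 2 and 3. Leaving out this lowest wildtype library, which by itself widens the difference and narrows the spread, gave -1.23 (adjusted p = 0.00118, edgeR). The other fits that left out 1 library gave no call, with -0.73 without wildtype replicate 3 and an adjusted p of up to 0.229, without mutant replicate 1 (edgeR). The markers did not all follow their sum. In group 2 wildtype replicates 1, 2 and 3, Hba-a1 read 1112, 2281 and 3093 CPM and Slc4a1 331, 623 and 905 CPM. Klf1 read 840, 871 and 787 CPM there, and Gata1 ran the other way at 384, 365 and 347 CPM. The part of the erythroid marker content was not tested. Exons of Gm27223 and Gm31748 overlap the gene on the opposite strand and took at most 1.91% as many counts.

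Slc25a38, the mitochondrial glycine carrier that supplies the first step of heme synthesis (ENSMUSG00000032519, chr9:120110374-120124504, plus strand), read 116, 122 and 129 CPM in group 1 wildtype and 89.9, 91.4 and 87.8 CPM in the mutants. Group 2 wildtype gave 122, 148 and 136 CPM, with 104, 100.1 and 118 CPM in mutants and 87.2, 77.2 and 113 CPM in low-yield mutants. The group 1 mutants were tightly grouped and well below wildtype, and in group 2 the mutant and low-yield libraries also stayed below wildtype. It fell by 0.45 ± 0.06 in group 1 (SE; adjusted p = 0.00117, edgeR) and by 0.55 ± 0.12 in low-yield mutants (adjusted p = 0.0125, edgeR). In the group 2 mutants the value was -0.33 ± 0.12 (adjusted p = 0.145, edgeR).

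Fth1 encodes the ferritin heavy chain (ENSMUSG00000024661, chr19:9980598-9985098, plus strand). It read 1077, 1008 and 1150 CPM in group 1 wildtype and 898, 917 and 906 CPM in the mutants. The values of group 2 were 365, 342 and 402 CPM in wildtype, 327, 283 and 313 CPM in mutants and 309, 288 and 301 CPM in low-yield mutants. The mutant libraries lay below wildtype throughout. It fell by 0.25 ± 0.06 in group 1 and by 0.30 ± 0.08 in low-yield mutants (SE; adjusted p = 0.0268 and 0.0280, edgeR), with -0.26 ± 0.08 in the group 2 mutants (adjusted p = 0.0785, edgeR).

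Ftl1 (ENSMUSG00000050708, chr7:45457944-45459884, minus strand) read 1225, 1149 and 1108 CPM in group 1 wildtype and 967, 950 and 1012 CPM in the mutants. The group 2 libraries held 1078, 1185 and 1170 CPM in wildtype, 985, 890.3 and 1006 CPM in mutants and 1008, 904 and 993 CPM in low-yield mutants. No mutant library reached a wildtype library here either. It fell by 0.25 ± 0.06 in group 1 (SE; adjusted p = 0.0245, edgeR), and the group 2 values of -0.25 ± 0.08 and -0.24 ± 0.08 missed the threshold (adjusted p = 0.0894 and 0.0749, edgeR). Sequences nearly identical to ferritin mRNA lie elsewhere in the genome and could share its reads. For Ftl1, 5 such genes (Gm15590, Ftl1-ps1, Gm12164, Ftl2-ps and Ftl1-ps2) had counts, which made up 1.17% of the sum, and for Fth1 there was 1, Gm6977, with 33 counts in all libraries. Adding these counts to their gene changed no call. The ratio of Fth1 to Ftl1 per length was 0.971 ± 0.0959 in group 1 wildtype and 0.968 ± 0.0368 in its mutants. In group 2 it was 0.337 ± 0.0315, 0.334 ± 0.0111 and 0.322 ± 0.00874 in wildtype, mutants and low-yield mutants. The difference in ratio between genotypes was smaller than the spread of the wildtype libraries in both groups of mice.

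Slc40a1 encodes ferroportin, the only known exporter of iron from cells (ENSMUSG00000025993, chr1:45908068-45926523, minus strand). It read 61.6, 51.6 and 51.1 CPM in group 1 wildtype and 47.5, 38.9 and 40.1 CPM in the mutants. Levels in group 2 were 66.4, 56.5 and 61.0 CPM in wildtype, 51.4, 55.8 and 48.4 CPM in mutants and 50.9, 47.9 and 53.5 CPM in low-yield mutants. All mutant libraries stood below wildtype, in group 2 by less than 1 CPM at the closest pair. It fell by 0.38 ± 0.10 in group 1 (SE; adjusted p = 0.0296, edgeR), while -0.24 ± 0.09 and -0.27 ± 0.09 in the 2 kinds of group 2 mutant did not pass (adjusted p = 0.146 and 0.0715, edgeR). Iron-recycling macrophages are rich in Slc40a1; the 10 macrophage markers summed to between 0.98 and 12.2 CPM per library. Csf1r reached 7.13 CPM, Vcam1 2.69 and Adgre1 2.11, while Timd4 was at 0 in every library. The 4 macrophage markers tested had median log2 fold changes of 0.47, 0.97 and 1.69 in the 3 comparisons, none called, and their part in the result was not tested.

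Ireb2, iron regulatory protein 2, which binds the hairpins (ENSMUSG00000032293, chr9:54863789-54912530, plus strand), read 90.3, 100.4 and 94.9 CPM in group 1 wildtype and 87.9, 87.8 and 78.2 CPM in the mutants. Libraries of group 2 read 61.4, 67.1 and 80.9 CPM in wildtype, 61.4, 66.9 and 65.9 CPM in mutants and 59.2, 64.3 and 66.0 CPM in low-yield mutants. The group 1 libraries just missed overlapping and the group 2 libraries overlapped. Its log2 fold changes were -0.17 ± 0.07, -0.11 ± 0.10 and -0.14 ± 0.10 in the 3 comparisons, the closest to 0 of the 10 in each, and none passed (adjusted p = 0.152, 0.632 and 0.416, edgeR).

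**Figure D3:**
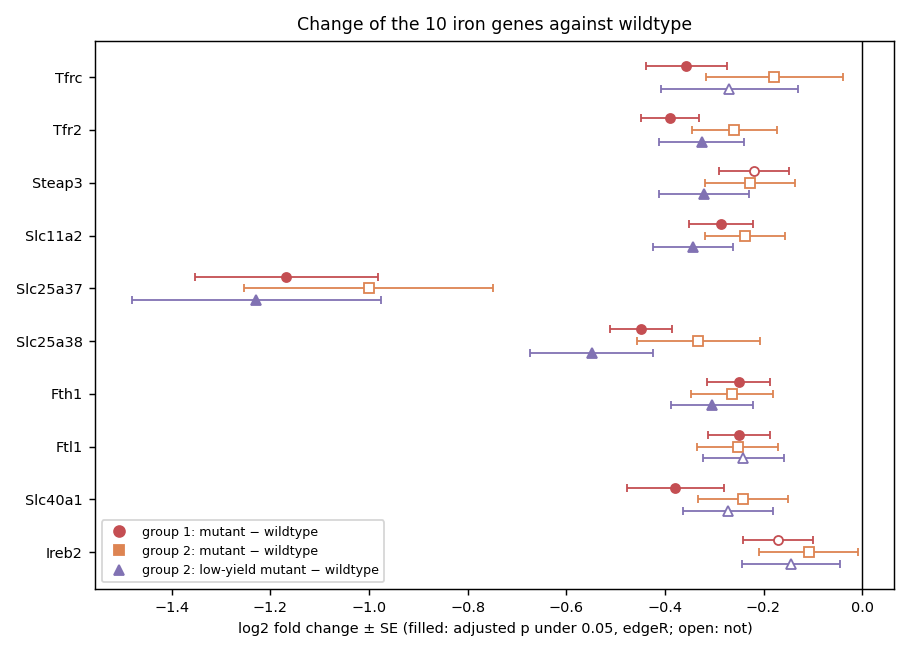
Log2 fold change against wildtype ± SE from edgeR, for the mutants of group 1 (circles), the mutants of group 2 (squares) and the low-yield mutants of group 2 (triangles); filled symbols passed at an adjusted p under 0.05. All 30 values lie below 0, Slc25a37 between -1.23 and -1.001 and the others between -0.55 and -0.11.

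The number of calls rested on single libraries. In group 1, leaving out mutant replicate 3 left 2 members called, wildtype replicate 2 left 3 and wildtype replicate 1 left 4, while the share of all genes called went from 11.9% to 5.22%, 5.42% and 7.37%. Without wildtype replicate 3 or mutant replicate 2 there were 6 (8.15% and 11.9% of genes). Without mutant replicate 1 the count was again 8 (10.2% of genes), with Steap3 in place of Slc25a37. Slc25a38 and Tfr2 kept their call in 6 of 6 such fits, whereas Slc25a37 kept it in 2 of 6, with adjusted p up to 0.0683 (edgeR) and log2 fold changes between -1.31 and -0.97. For the low-yield mutants no member was called without low-yield replicate 1 or 2, where the share of all genes called went from 11.7% to 4.95% and 5.02%. Without wildtype replicate 2 there was 1 (6.41% of genes), without wildtype replicate 3 there were 4 (7.35%), and without mutant replicate 1 or low-yield replicate 3 there were 5 (10.4% and 11.7%). Over all such fits the log2 fold change of Slc25a37 lay between -1.46 and -0.96 and that of Slc25a38 between -0.72 and -0.43. Without wildtype replicate 1 the count was again 6 (14.3% of genes), with Ftl1 in place of Tfr2. For the group 2 mutants, Slc25a37 was called without wildtype replicate 1 (8.43% of genes). No member was called in the other fits that left out 1 library (2.7% to 5.66% of genes).

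With the 12 libraries of wildtype and mutant embryos of both groups fitted together, and the group of mice as a block, 9 of the 10 fell and none rose (9 at an unadjusted p under 0.05, as did 14.8% of genes in the lower direction). In that fit 2864 of 15954 genes were called, 18% (8.99% lower). The smallest adjusted p-values were 1.43e-04 for Slc25a38 (log2 fold change -0.39 ± 0.06) and 3.65e-04 for Tfr2 (-0.32 ± 0.05, edgeR). Slc25a37 stood at -1.08 ± 0.17 (adjusted p = 0.00148, edgeR), Slc40a1 at -0.31 ± 0.08 and Tfrc at -0.27 ± 0.09. Slc11a2, Fth1, Ftl1 and Steap3 lay between -0.26 and -0.22. Ireb2 was the exception, at -0.14 ± 0.07 (adjusted p = 0.172, edgeR). The call of Tfrc (adjusted p = 0.0474, edgeR) was lost in 6 of 12 fits without 1 library, namely group 1 wildtype 2 or 3, group 1 mutant 2 or 3, group 2 wildtype 3 or group 2 mutant 1. It was also lost with a floor of 5 on mean CPM in place of the filter (-0.26, adjusted p = 0.0537, edgeR), which left 8 members called. Steap3 was lost without group 1 wildtype 2, and Ireb2 was called (adjusted p = 0.0328, edgeR) without group 2 wildtype 1.

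Whether the change differed between the groups of mice was tested as the interaction of genotype and group. No member was called, where 4 of 15954 genes were, 0.0251%. The difference (group 2 minus group 1) ranged from 0.00 ± 0.12 for Fth1 to 0.19 ± 0.18 for Tfrc on the log2 scale, and the smallest unadjusted p was 0.183, for Tfr2 (edgeR). DESeq2 and limma called no member here either.

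The low-yield mutants were also compared with the other mutants of group 2. edgeR called 0 of 15024 genes, 0%, with 400 at an unadjusted p under 0.05, and DESeq2 called 6 and limma-voom 10 genes, none of them a member. The members' log2 differences (low-yield minus mutant) ran from -0.23 ± 0.25 for Slc25a37 and -0.22 ± 0.12 for Slc25a38 to 0.01 ± 0.08 for Ftl1. All 10 genes overlapped between these 2 kinds of mutant, whereas 4.15% of all genes were lower in low-yield libraries without overlap. No member had an unadjusted p under 0.05 (1.38% of genes did so in the lower direction), and the smallest was 0.108, for Slc25a38 (edgeR).

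A gene without a match to the hairpin pattern may still hold an iron-responsive element of another form. Medians of the genes with and without the pattern were set side by side, with no test between them. In group 1 the 4 genes with it had a median log2 fold change of -0.30 and the 6 without it -0.34, and all 4 and 4 of 6 were called. In the group 2 mutants both medians were -0.25, with none called by edgeR. There DESeq2 called Fth1 and Ftl1 with the pattern and Slc25a37 without it. Voom with quality weights called Ftl1 with the pattern and Tfr2, Slc11a2 and Slc25a37 without it. In the low-yield mutants the medians were -0.27 and -0.33, with 1 of 4 and 5 of 6 called; there the 4 genes with the pattern lay between -0.30 and -0.24, and all without it except Ireb2 (-0.14) at -0.32 or lower. DESeq2 called 3 of 4 (Fth1, Ftl1 and Slc40a1) and voom with quality weights 3 of 4 (Fth1, Ftl1 and Tfrc) in the low-yield mutants, beside 5 of 6 without the pattern by either tool. The fit over both groups gave medians of -0.26 and -0.29, with 4 of 4 and 5 of 6 called. Over all 44 genes that hold the pattern in a UTR, a list made after the tables were seen, 35 were tested in each comparison with wildtype within a group of mice. In the fit over both groups 36 were tested. There 7 fell, among them the 4 members and Ftl1-ps1, and 2 rose, beside 18% of all genes called. In group 1, 5 fell (Alas2 and the members Fth1, Ftl1, Slc40a1 and Tfrc) and 1 rose (Wdr1), beside 11.9% of all genes called. In the group 2 mutants edgeR called none (6.02% of all genes), and in the low-yield mutants it called 2 lower, Fth1 and Zbtb44 (11.7% of all genes). In both, DESeq2 and voom called further members on this list, as given above. The 7 tested genes with the pattern in the 5′ UTR, of which Fth1, Ftl1 and Slc40a1 are members, had median log2 fold changes of -0.25, -0.25 and -0.27 in these comparisons, with 4, 0 and 1 called lower by edgeR. The 28 tested with it in the 3′ UTR had medians of -0.02, 0.0031 and 0.03, with 1, 0 and 1 called lower and 1 higher in group 1 by edgeR. The 5′ UTR median was the value of Fth1 itself in group 1 and of Slc40a1 in the low-yield mutants. The 5′ UTR list also holds Ftl1-ps1, nearly identical to Ftl1. Its median thus rests largely on the members, and the 2 lists were not tested against each other.

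Beyond the 10, a list of 41 other iron genes was set against the same comparisons. In the fit over both groups 32 were tested, 11 fell and 2 rose, and the median log2 fold change was -0.14 beside 0.00 over all genes. The share of all genes called in that fit was 18%. In group 1, 7 of 32 tested fell and 1 rose (11.9% of all genes called). In the group 2 mutants 2 of 31 fell and 1 rose, a share near the 6.02% of all genes called there, and in the low-yield mutants 5 of 31 fell and 1 rose (11.7%). Of the 16 mitochondrial carriers and iron-sulfur genes, 5 fell and 1 rose over both groups. Of the transferrin-cycle genes, 3 of 6 tested fell, of those for sensing and ferritin handling 2 of 5, and of those for other transport and systemic control 1 of 5 fell and 1 rose.

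Abcb10, a transporter of the inner mitochondrial membrane needed for heme synthesis, moved most firmly: it read 138, 174 and 163 CPM in group 1 wildtype and 97.9, 99.3 and 90.2 CPM in the mutants. Group 2 wildtype gave 267, 294 and 328 CPM, with 155, 174 and 201 CPM in mutants and 145, 143 and 199.6 CPM in low-yield mutants. Mutants and wildtype did not overlap, and over both groups it fell by 0.73 ± 0.07 on the log2 scale (SE; adjusted p = 1.79e-06, edgeR). Erfe, the erythroid hormone erythroferrone that lowers hepcidin, was at 14.4, 13.8 and 10.02 CPM in group 1 wildtype and 9.68, 4.92 and 4.80 CPM in the mutants. The values of group 2 were 15.02, 19.7 and 16.9 CPM in wildtype, 9.71, 9.34 and 11.98 CPM in mutants and 10.4, 10.5 and 10.4 CPM in low-yield mutants. Over both groups it fell by 0.85 ± 0.17 (SE; adjusted p = 0.00251, edgeR).

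The iron-sulfur assembly genes Isca1 (-0.33 ± 0.05), Lyrm4 (-0.29 ± 0.08), Bola3 (-0.23 ± 0.06) and Iba57 (-0.22 ± 0.07) fell over both groups (SE, log2 scale; adjusted p = 3.05e-04 to 0.0326, edgeR). The chaperone Hspa9, a mitochondrial Hsp70 that serves iron-sulfur transfer among other tasks, rose by 0.35 ± 0.06 (adjusted p = 7.91e-04, edgeR). It read 1143, 1040 and 1062 CPM in group 1 wildtype and 1454, 1274 and 1464 CPM in the mutants, and 846, 704 and 727 CPM in group 2 wildtype against 1012, 873 and 973 CPM in its mutants. Wildtype and mutant libraries did not overlap in either group. Mcoln1, an ion channel of lysosomes (-0.42 ± 0.09), Ncoa4, the receptor that delivers ferritin for breakdown (-0.26 ± 0.07), Pcbp1, an iron chaperone that loads ferritin (-0.20 ± 0.05), and Snx3, which returns the transferrin receptor to the surface (-0.16 ± 0.05), fell as well. Slc39a14, a transporter of iron not bound to transferrin, rose by 0.48 ± 0.12 (adjusted p = 0.00886, edgeR) from low levels: 6.94, 7.46 and 4.64 CPM in group 1 wildtype and 8.36, 9.17 and 8.46 CPM in the mutants, and 11.7, 11.1 and 12.8 CPM in group 2 wildtype against 18.5, 14.4 and 17.4 CPM in its mutants.

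**Figure D4:**
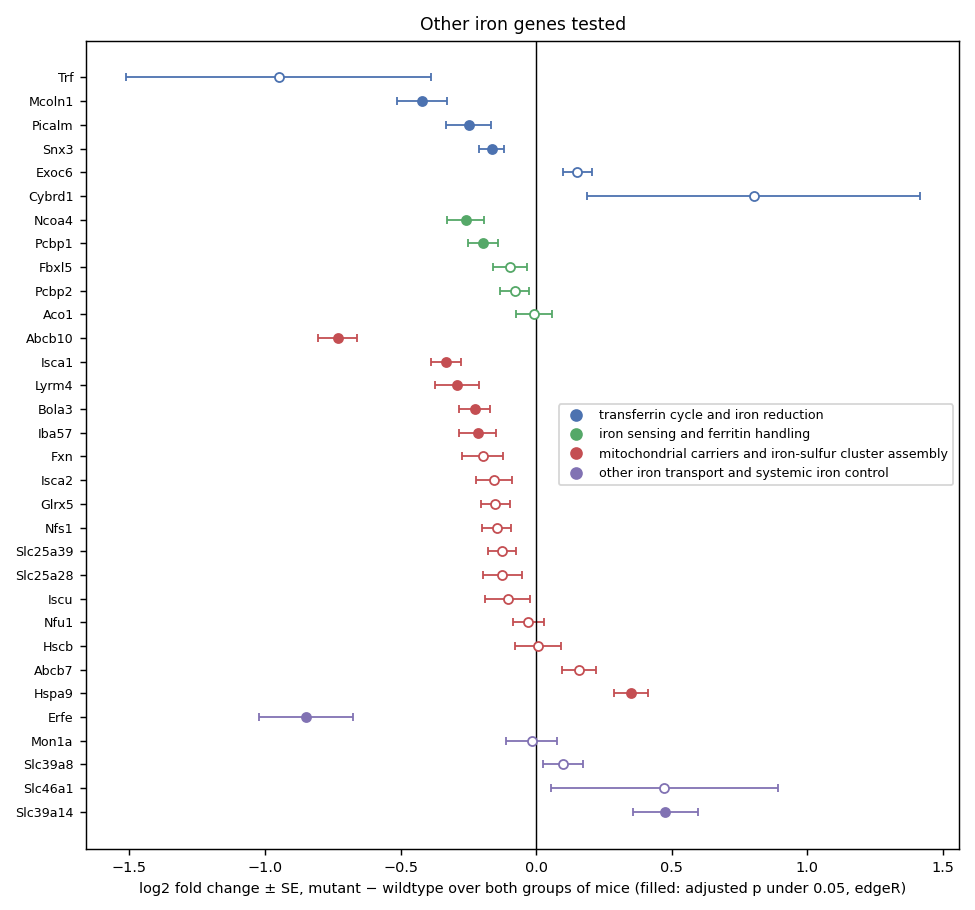
Log2 fold change ± SE (edgeR, mutant minus wildtype over both groups of mice, 12 libraries) of the 32 other iron genes tested, coloured by list; filled circles passed at an adjusted p under 0.05. The 11 filled circles left of 0 include Erfe and Abcb10, and the 2 to the right are Hspa9 and Slc39a14.

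For the 2 members with the smallest p over both groups, the genes with the most similar pattern were sought among 12494 protein-coding genes. The measure was the root mean square difference in log2 CPM over 15 libraries, each taken relative to the wildtype mean of its group of mice, so that a value of 0 means the same pattern. Among the nearest to Slc25a38 were Cyb5r3 (0.0836), a cytochrome b5 reductase, and Urod (0.0901), an enzyme of heme synthesis, beside a median of 0.451 over all genes. Nearest to Tfr2 were Kifc5b (0.0700), Uhrf1bp1 (0.0734) and Adnp2 (0.0737), beside a median of 0.357. A gene that stayed at the wildtype mean in every library would score 0.376 against Slc25a38 and 0.266 against Tfr2. Both values are below the medians, so the medians are a loose yardstick. The libraries shared by all these values make them a description.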

How the data were processed

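RNA of 15 mouse fetal liver erythroid progenitor libraries was sequenced as 151 bp paired ends, per the labels' protocols. The authors deposited 1 table of expected counts for each group of mice, that is, estimated read numbers by gene without normalisation. They were whole as deposited, so rounding changed nothing. The submitters' processing notes name cutadapt 2.3, FastQC 0.11.8, STAR 2.7.8a, RSEM 1.3.3, MultiQC 1.7 and build GRCm38, without their roles. The annotation release and use of strand are not given in the sources used here, so reads of near-identical or overlapping genes may be shared. Of the 55487 gene IDs, 99.5% are in GENCODE M21, from which names, coordinates, transcript lengths (longest well-supported principal coding transcript) and UTRs were taken. Rows of reporter sequences, 5 and 4 in the 2 tables with 5 counts in all, were left out.

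Each library was assigned by its title. Tests used edgeR's quasi-likelihood method (edgeR 4.0.16, R 4.3.3, with TMM, filterByExpr, robust fit, two-sided, Benjamini-Hochberg over all genes tested, threshold 0.05). Fits were checked on simulated data with planted changes larger than those of every member but Slc25a37, so smaller changes were not checked. Group 1 was fitted alone, the 3 groups of group 2 in 1 fit, and both groups of mice with the group as a block and in an interaction model. CPM were computed by edgeR from TMM-adjusted library sizes. Replicates within a group differed by more than sampling noise (chi-square per degree of freedom 19.5 to 75.6). Same-numbered wildtype and mutant libraries of group 1 deviated together from their group means (correlations over genes 0.44, 0.19 and 0.15). By the rule of over 0.1 for every pair the numbers were treated as a possible pairing, which the titles do not state. Wildtype 3 correlated more with mutant 2, at 0.23, than with mutant 3. The main fit of group 1 is unpaired, and the block is an alternative. With the replicate number as a block 2772 in place of 1678 genes were called in group 1, and Slc25a37 was not (adjusted p = 0.0702, edgeR). Alternatives were DESeq2 1.42.0, voom with quality weights in limma 3.58.1, RLE size factors, the replicate block, dropping the low-count filter or replacing it by a floor of 5 on mean CPM, fits of only the 2 groups compared, ferritin summed with its copies (95% identity over 80% of length), and each library left out.

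The 10 genes, the lists of other iron genes and of cell type markers, and the tests were chosen with earlier results of these data known. Named are all 10 genes, Rpl5, the called genes among the other iron genes (at most 12, smallest p first) and, for the 2 members with the smallest p over both groups, the 3 genes most like each (pseudocount 0.1). An item that this rule names is not reported here.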

Additional observations from a re-analysis of the deposited data

How the results depend on the processing

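All 10 members kept a negative log2 fold change against wildtype under every alternative run in group 1, in the low-yield mutants and over both groups. In the group 2 mutants the exception was Ireb2 (-0.18 to 0.011 with 1 library left out). Members called in the group 2 mutants were 0 in the fit reported, but 3 with DESeq2, 4 with voom, 2 without the low-count filter and 3 with the replicate block, beside 4.34%, 6.03%, 2.78% and 3.95% of all genes called lower. With 1 library left out, members called ranged from 2 to 8 in group 1, 0 to 1 in the group 2 mutants, 0 to 6 in the low-yield mutants and 7 to 10 over both groups. Genes called ranged from 757 to 1720 (group 1), 419 to 1314 (group 2 mutants), 771 to 2234 (low-yield mutants), 0 to 22 (low-yield against mutant), 2282 to 3342 (both groups) and 2 to 5 (interaction). In group 1 the replicate block gave 2772 genes. In the group 2 mutants DESeq2 gave 1452, voom 1928 and no filter 1457 genes. In the low-yield mutants voom gave 3348, and low-yield against mutant gave 6, 10 and 87 genes with DESeq2, voom and no filter. The interaction gave 12, 7 and 8 genes with DESeq2, no filter and the replicate block. The replicate numbers of group 2 were not taken to pair its libraries, since same-numbered wildtype and mutant libraries correlated at 0.24, 0.17 and 0.02; beyond the 3 member calls above (Fth1, Slc25a37 and Slc25a38), the block changed no call of a member in the low-yield or combined comparisons.

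Differences near 0 changed sign, none of them called. For low-yield against mutant, voom gave -0.013 for Ftl1 and 0.011 for Slc40a1, and fits without 1 library spanned -0.21 to 0.032 for Tfrc, -0.098 to 0.0045 for Fth1, -0.041 to 0.062 for Ftl1, -0.076 to 0.025 for Slc40a1 and -0.073 to 0.0105 for Ireb2. For the interaction, Steap3, Fth1 and Ftl1 gave -0.019, -0.023 and -0.012 with DESeq2 and with RLE size factors, and -0.0059, -0.012 and -6.04e-04 without the filter. With a mean CPM of at least 5, Steap3 gave -0.0017 and Fth1 -0.0079. Without 1 library the interaction spanned -0.087 to 0.061 for Steap3, -0.0088 to 0.091 for Slc11a2, -0.083 to 0.41 for Slc25a37, -0.089 to 0.0496 for Fth1, -0.076 to 0.0599 for Ftl1 and -0.037 to 0.16 for Ireb2. The causes were not tested. The smallest count of a member in any library was 1446; the effect of depth on the calls was not tested.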

Other observations

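The ferritin chains stood in a different proportion in the 2 groups of mice. Per length, Fth1 was 0.971 ± 0.0959 of Ftl1 in group 1 wildtype and 0.337 ± 0.0315 in group 2 wildtype (SD, n = 3), with no overlap between libraries. The proportion of Tfrc to Tfr2 per length was 2.99 ± 0.224 and 2.41 ± 0.532. These are proportions within each library, not levels set against each other. The tables were normalised separately and the labels name polyA RNA for group 1 and total RNA for group 2, so library type, batch and mice cannot be told apart, and no test was made.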
